A study of Sus scrofa with 12 samples.

Results

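The miRNAs of the DLK1-DIO3 imprinted region were followed in testis small RNA libraries of the Hezuo pig (HZ) and the Landrace pig (LC). Members were chosen by name: every listed entry, of the pig or of another species, whose miRNA number belongs to a list of 40 numbers known for this region. The rule used no measured value, though it was set with earlier results of these data known, and it found 61 of the 1452 listed miRNAs. They carry 35 of the 40 numbers, and miR-134, miR-337, miR-654, miR-665 and miR-889 had no entry. Of the 61 entries, 15 are pig entries ("exist", with the prefix ssc-) and 46 are entries matched to the miRNAs of other animals ("known"). In the names of known entries x marks the 5' arm and y the 3' arm of the hairpin, and z marks neither. Wherever an x or y entry of the 1452 overlapped a pig entry whose name gives the arm, the arms were the same, in 59 of 59 x entries and 55 of 55 y entries.

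The 12 libraries were made from testis tissue and form 4 groups of 3: Ha (HZ, 30 days), Hb (HZ, 120 days), La (LC, 30 days) and Lb (LC, 120 days). No treatment or allele is given for any group. The methods of the study describe RNA taken from pooled samples, and whether a library stands for 1 boar is not given in the sources used here, so the p-values measure the spread between libraries. The study asked how miRNAs of the testis differ by age and between an early-maturing breed (HZ) and a later-maturing breed (LC). It takes the older HZ boars as sexually mature and the LC boars of that age as not yet at puberty.

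In mammals, the DLK1-DIO3 region is imprinted: its protein-coding genes DLK1, RTL1 and DIO3 are read from the chromosome of the father, and its non-coding RNAs, among them MEG3 and a large group of miRNAs, from that of the mother. Long non-coding transcripts carry many of the miRNA hairpins, which Drosha and Dicer cut into pairs of mature arms. Some of the miRNAs, such as miR-127 and miR-136, lie antisense to RTL1 and can direct the cleavage of its mRNA. The miRNAs of this region are typical of embryonic, placental, neural and other immature tissue.

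The pig annotation of Sscrofa11.1 places DLK1 at chr7:121565844-121577493, MEG3 at chr7:121656253-121660495 and RTL1 at chr7:121706955-121720472. MIR493 lies between MEG3 and RTL1, at chr7:121697837-121697919. The hairpin genes MIR127 (chr7:121709636-121709715), MIR432 (chr7:121711137-121711216) and MIR136 (chr7:121711328-121711409) lie within the bounds of RTL1. MIR376A, MIR376C, MIR381 and DIO3 are placed on a sequence with no chromosome in that annotation.

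The sequences below are those on which the results turn, as the deposited table lists them, 5' to 3', with the seed (bases 2 to 8, which pair with the target) in capitals. The 8 members with the highest mean level over the 12 libraries come first.
ssc-miR-127: tCGGATCCgtctgagcttggct
ssc-miR-381-3p: tATACAAGgacaagctctctgt
miR-411-x: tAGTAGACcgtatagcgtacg
miR-409-x: aGGTTACCcgagcaactttgcat
ssc-miR-136-3p: cATCATCGtctcaaatgagtct
miR-127-y: tCGGATCCgtctgagcttggctat
miR-409-y: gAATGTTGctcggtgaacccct
miR-299-y: tATGTGGGacggtaaaccgct

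A second set holds members that moved most or that departed from the rest, and 2 named for other reasons. Of these, miR-380-y is named for a test of breed and age together, and miR-381-y for its ratio to an overlapping entry.
miR-127-z: tCGGATCCgtctgagcttggctatt
ssc-miR-370: gCCTGCTGgggtggaacctggt
ssc-miR-411: aTGTAACAcggtccactaac
miR-494-y: tGAAACATacacgggaaacctct
miR-380-y: tATGTAATatggtccacgtct
miR-485-y: gTCATACAcggctctcctctct
ssc-miR-299: aTGGTTTAccgtcccacatac
miR-541-x: aAGGGATTctgatgttggtcacact
miR-381-y: tATGCAAGgacaagctctctgtt

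The 61 members hold 55 distinct seeds, so most of them do not share a seed with another member. Members with a common seed are mostly entries for the same arm: the 3 entries CGGATCC of miR-127, and pairs for miR-370, miR-432 and miR-758. Only miR-485-y and miR-539-y share a seed (TCATACA) under different numbers. The entries miR-127-y and miR-127-z repeat ssc-miR-127 with 2 and 3 more bases at the 3' end, and such overlapping entries can split the reads of an arm. The sequence and counts of miR-154-z equal those of the entry miR-3958-y, and those of miR-411-y equal miR-3959-y, so the same reads stand under both names.

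The listed counts per library ran from 6520197 to 16874633, of which the members took 2032 to 18558. A floor of 3 counts was worth 0.158 to 0.404 TPM (the unit of the deposited levels, in which the authors scaled each count by the tags of its library). Of the 61 members, 40 had a mean of at least 1 TPM over the 12 libraries, 15 had at least 10 TPM, and 35 were counted in every library. The 21 members under 1 TPM were tested with the rest and stand in every count over 61. The top 8 members made up 71.8 to 85.4% of the summed level in each library. The Hb 2 library stood apart: it was the lowest of its group for 74.4% of the 774 listed miRNAs whose mean reached 1 TPM, and its normalization factor in the comparison with Ha was 0.717. Testis identity was checked with miR-202, a miRNA of the gonad, whose summed entries were at 9608 TPM or more in every library.

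The summed level of the members was highest in Ha and lowest in Hb. It was 1711, 1553 and 1009 TPM in the 3 Ha libraries, and 495.3, 222 and 346 TPM in Hb. In La it was 804, 985 and 776 TPM, and in Lb 885, 344 and 862 TPM. The Ha and Hb libraries did not overlap, nor did Ha and La, whereas the Lb 2 library lay far below Lb 1 and Lb 3 and within the range of Hb. As means, the groups were at 1424 ± 368 (Ha), 354 ± 137 (Hb), 855 ± 113 (La) and 697 ± 306 TPM (Lb; SD, n = 3 each), which are 0.161, 0.0404, 0.0959 and 0.0801% of all listed counts. The mean was therefore 4.02-fold higher in Ha than in Hb and 1.23-fold higher in La than in Lb. No p is given for these sums. Without Lb 2, the ratio of Lb to La moved from 0.815 to 1.02.

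**Figure D1:**
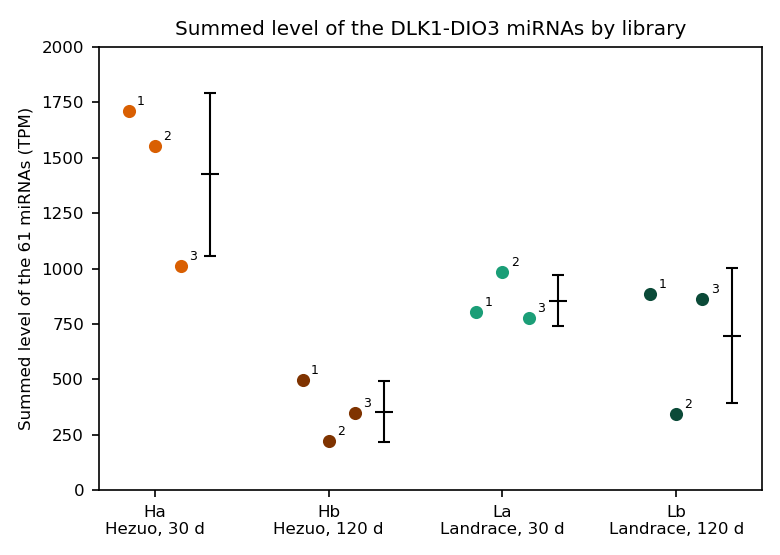
Summed level of the 61 members (TPM, vertical axis) in each library, by group; points are libraries, numbered by replicate, and the black bars are mean ± SD (n = 3). Ha (1009 to 1711 TPM) lies above Hb (222 to 495.3 TPM), and Lb 2 (344 TPM) lies below Lb 1 and Lb 3.

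These are amounts relative to all small RNA of the tissue, and in bulk libraries fewer cells of a type and less RNA per cell cannot be told apart. Marker miRNAs of other cells moved with age as well, and of 10 lists 8 were apart between the ages in both breeds, of which 4 were higher at 120 days in both, 3 lower in both, and 1 opposite. The 4 entries of miR-34b, miR-34c and miR-449, which mark meiotic and haploid germ cells, summed to 23.5 to 76.9 TPM in Ha and 2580 to 13177 TPM in Hb, and to 16.6 to 24.6 TPM in La and 11279 to 13895 TPM in Lb. Those of smooth muscle (miR-143 and miR-145) were at 22030 to 36347 TPM in Ha and 58183 to 92500 TPM in Hb, and at 20687 to 26749 TPM in La and 55596 to 65214 TPM in Lb. Those of neurons (miR-124 and miR-9) were at 342 to 352 TPM in Ha and 491 to 1612 TPM in Hb, and at 242 to 295 TPM in La and 973 to 1135 TPM in Lb. The list of striated muscle was also higher at 120 days. The gonad list (miR-202) was apart between the ages in both breeds in opposite directions, at 18675 to 21867 TPM in Ha and 9608 to 17266 TPM in Hb, and at 15272 to 17278 TPM in La and 17966 to 24405 TPM in Lb. In the direction of the members, the 12 entries of miR-199 and miR-214, miRNAs of mesenchymal cells, summed to 74848 to 77877 TPM in Ha and 32285 to 43890 TPM in Hb, and to 84690 to 94056 TPM in La and 47472 to 55355 TPM in Lb. The lists of leukocytes and endothelium were lower at 120 days too.

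From library to library, the mesenchyme list followed the order of the members in Hb (43890, 32285 and 35236 TPM in Hb 1, 2 and 3) but was highest in Lb 2 (55355 TPM), where the members were lowest. In Ha (77877, 74848 and 76536 TPM) and La (84690, 91683 and 94056 TPM) it did not follow their order either. Between the breeds at 30 days, the mesenchyme, leukocyte and erythroid lists were higher in La and those of gonad and neurons lower, with no overlap. At 120 days the mesenchyme, striated muscle and gonad lists were higher in Lb and that of endothelium lower. The part of these cells in the results on the members was not tested.

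The first comparison, Ha vs. Hb, asked what changed with age in HZ testis. Most of the members fell: 42 of 61 members fell and 0 rose at an adjusted p under 0.05 (quasi-likelihood test of edgeR, p-values adjusted by Benjamini-Hochberg over the 1441 miRNAs tested). Of all miRNAs tested, 13.0% fell and 21.3% rose. At the thresholds of the study (absolute log2 fold change above 1, unadjusted p under 0.05), 46 members were lower and 0 higher (all miRNAs, 14.4% lower and 25.1% higher). DESeq2, which gave an adjusted p for 54 members, called 39 lower and 0 higher (background 14.4% lower). Without Hb 2, edgeR called 41 members lower (background 13.9%). The median log2 fold change of the members was -1.85, against 0.32 for all miRNAs tested. Of the 61 members, 55 were below 0 and 6 above. Of the 40 members with at least 1 TPM, 39 were below 0, with miR-541-x the exception, and the middle of their distribution (25th to 75th percentile) ran from -2.47 to -1.61. Some members, such as miR-485-x, reach that level only through Ha, which favours a fall. The median of all miRNAs of that level was 0.03. The ranges of the 3 libraries did not overlap for 46 members, all lower in Hb. Over all miRNAs, 20.7% were apart and lower in Hb and 23.0% apart and higher.

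The most abundant member, ssc-miR-127, is the 3' arm of a hairpin that lies antisense to RTL1. It was at 477, 431.5 and 282 TPM in Ha and at 132, 81.9 and 95.5 TPM in Hb. All Ha libraries were above all Hb libraries, and it fell by 1.84 on the log2 scale (SE 0.28, adjusted p = 0.00023). Second in level was ssc-miR-381-3p, with 314, 303 and 172 TPM in Ha and 78.3, 33.9 and 68.0 TPM in Hb. It fell by 2.07 (SE 0.31, adjusted p = 0.00021), again with no overlap. The 5' arm miR-411-x was at 187, 169 and 117 TPM in Ha and 65.3, 35.8 and 45.7 TPM in Hb, and fell by 1.60 (SE 0.28, adjusted p = 0.00078). Every one of the 8 most abundant members fell, and in each the Ha and Hb libraries were apart.

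The arms of other hairpins followed the same course. The 5' arm miR-409-x was at 64.8, 70.0 and 39.7 TPM in Ha and at 34.9, 5.67 and 13.6 TPM in Hb, so that Hb 1 came close to Ha 3. The 3' arm ssc-miR-136-3p, whose hairpin gene also lies within the bounds of RTL1, was at 72.6, 61.5 and 44.5 TPM in Ha and at 24.1, 10.9 and 26.5 TPM in Hb. It fell by 1.47 (SE 0.33, adjusted p = 0.0038), the smallest fall among the 8. For miR-299-y the levels were 47.6, 39.3 and 31.9 TPM in Ha and 13.6, 5.997 and 11.7 TPM in Hb, a fall of 1.86 (SE 0.32, adjusted p = 0.00068). The longer form miR-127-y was at 89.2, 79.2 and 56.0 TPM in Ha and at 13.5, 14.0 and 13.1 TPM in Hb, a fall of 2.30 (SE 0.34, adjusted p = 0.00016). It was not lowest in Hb 2.

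Among members with at least 10 TPM in a group, the 4 greatest falls were those of miR-409-y, ssc-miR-370, miR-494-y and ssc-miR-411. The 3' arm miR-409-y was at 61.1, 42.4 and 32.5 TPM in Ha and at 10.2, 1.09 and 3.604 TPM in Hb. It fell by 3.24 on the log2 scale (SE 0.51, adjusted p = 0.00030), and Hb 2 was the lowest library. The study names ssc-miR-370 among its candidates for early puberty. For this member the Ha libraries were at 33.0, 26.1 and 25.5 TPM and the Hb libraries at 7.54, 1.74 and 2.83 TPM, a fall of 2.80 (SE 0.41, adjusted p = 0.00016). All Hb libraries were below all Ha libraries. Levels of miR-494-y were 35.4, 29.4 and 18.7 TPM in Ha and 9.70, 0.763 and 4.25 TPM in Hb, and it fell by 2.56 (SE 0.53, adjusted p = 0.0023). Those of ssc-miR-411, the 3' partner of miR-411-x, were 39.6, 36.6 and 28.9 TPM in Ha and 10.6, 2.62 and 5.66 TPM in Hb, a fall of 2.47 (SE 0.38, adjusted p = 0.00024). In both, Hb 2 was again the lowest library and the groups were apart. No member with at least 10 TPM moved against the rest. Some of these, such as ssc-miR-323 (mean 14.4 TPM in Ha and 2.80 TPM in Hb), reach that level only in Ha and could hardly do so. With no such filter, 0 of 61 members rose.

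Among low members, miR-485-y and miR-127-z had almost no counts at 120 days in HZ. The arm miR-485-y, named here after its values were seen, had 72, 39 and 33 counts in Ha and 2, 0 and 0 in Hb. Its summed count per listed count was 55.3-fold higher in Ha than in Hb (95% interval of the counting error alone, 15.04 to 461). The entry miR-127-z, the form of ssc-miR-127 with 3 added bases and a member that the study names, had 49, 41 and 25 counts in Ha and 2, 0 and 2 in Hb. It fell by 4.27 on the log2 scale (SE 0.67, adjusted p = 0.00030), though 4 counts in all of Hb leave the size of this fall poorly set.

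**Figure D2:**
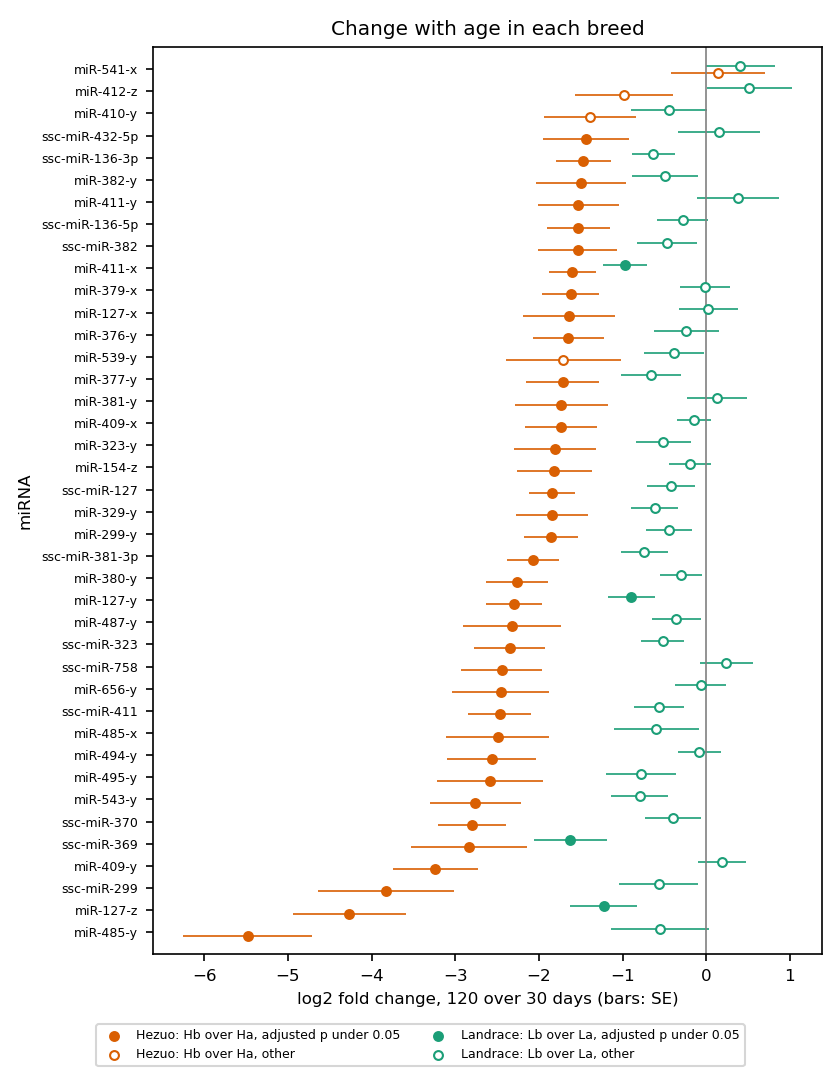
Log2 fold change from 30 to 120 days (horizontal axis) with its standard error, for the 40 members averaging at least 1 TPM, in HZ (orange) and LC (green); filled points have an adjusted p under 0.05. In HZ 36 of the 40 are filled and 39 lie below 0, and in LC 4 are filled and 32 lie below 0. Over all miRNAs tested, at any level, 13.0% fell in HZ and 13.4% in LC. The share that fell among all miRNAs averaging at least 1 TPM was not counted, and their median was 0.03 in HZ and 0.04 in LC.

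The same comparison in LC, La vs. Lb, gave fewer calls. Here 4 of 61 members fell and 0 rose, where 13.4% of the 1446 miRNAs tested fell and 26.8% rose, so the share of members called was below the background. DESeq2 called 5 of 56 lower and 0 higher (background 14.3% lower), and 8 members were lower and 0 higher at an unadjusted p under 0.05 (background 15.9% lower and 31.1% higher). At the thresholds of the study 2 were lower and 0 higher (background 5.81 and 26.3%). The median of the members was -0.44 (all miRNAs tested, 0.32), and it was -0.21 without Lb 2. The count was 1 without La 2, 8 without Lb 1 and 12 without Lb 3, where 10.9, 11.4 and 13.3% of all miRNAs fell. All 4 of these members also fell in HZ, where 42 of the 61 members did. How many of all miRNAs that fell in LC also fell in HZ was not counted.

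The 4 members that fell in LC were miR-411-x, miR-127-y, miR-127-z and ssc-miR-369, of which the last is a 3' sequence at 1.94 TPM in La and is named to complete the count. Levels of miR-411-x were 85.1, 112 and 90.2 TPM in La and 63.4, 28.8 and 74.5 TPM in Lb. It fell by 0.97 (SE 0.26, adjusted p = 0.010), with no overlap. Without La 2 it did not pass (-0.85, adjusted p = 0.073). For miR-127-y they were 34.2, 47.6 and 33.3 TPM in La and 31.4, 11.6 and 27.5 TPM in Lb, a fall of 0.89 (SE 0.28, adjusted p = 0.024), which did not pass without La 2 (-0.71, adjusted p = 0.14), with library size alone (-0.66, adjusted p = 0.096) or with TMM from exist miRNAs (-0.81, adjusted p = 0.051). The low entry miR-127-z had 18, 24 and 30 counts in La and 16, 4 and 12 in Lb, a fall of 1.23 (SE 0.40, adjusted p = 0.028). It did not pass in 4 of 16 alternatives, without La 2, without La 3, with library size alone and with DESeq2, and there the adjusted p was at most 0.11. The shorter and more abundant ssc-miR-127 was at 212, 295 and 207 TPM in La and 265, 92.8 and 252 TPM in Lb. Its groups overlapped, with only Lb 2 below La, and its log2 fold change was -0.42 (SE 0.29, adjusted p = 0.27). This value depended on single libraries: it was -0.16 without Lb 2, -0.24 without La 2, -0.64 without Lb 1 (adjusted p = 0.043) and -0.58 without Lb 3 (adjusted p = 0.0079), and it passed the test in the latter 2. The level of miR-409-y was 22.4, 19.5 and 16.8 TPM in La and 33.0, 12.2 and 30.9 TPM in Lb, with a log2 fold change of 0.19 (SE 0.28, adjusted p = 0.63).

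The difference between these age effects was tested as an interaction of breed and age over all 12 libraries. The age effect in LC was higher than that in HZ, by the adjusted p, for 2 members, miR-409-y and miR-380-y, and lower for 0 (background 0.758% higher and 0.620% lower). At an unadjusted p under 0.05 the count was 33 higher and 0 lower, where 13.4% of all miRNAs were higher and 7.78% lower, and DESeq2 gave 16 of 51 higher and 0 lower after adjustment (background 6.61% higher). At the thresholds of the study 33 were higher and 0 lower (background 11.2 and 5.92%). Of the 61 members, 57 had an estimate above 0 and 4 below, and all 40 with at least 1 TPM were above 0. That level is a mean over the 12 libraries, and some members, such as miR-485-x, reach it only through Ha, which favours this sign. The median of all 774 miRNAs of that level was 0.14. The median over the 61 members was 1.52, beside 0.09 for all miRNAs. For miR-409-y the difference of the log2 fold changes was 3.37 (SE 0.64, adjusted p = 0.032). The 3' arm miR-380-y was at 34.4, 28.4 and 20.7 TPM in Ha and fell to 9.02, 2.84 and 5.15 TPM in Hb. The LC libraries were at 15.3, 16.4 and 14.7 TPM at 30 days and at 17.9, 8.29 and 16.6 TPM at 120 days, which overlapped. Its difference was 1.91 (SE 0.45, adjusted p = 0.048).

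The count for the interaction changed with single libraries. It was 14 without Hb 1, where 6.61% of all miRNAs were higher, and 14 without Lb 2, where 1.79% were. It was 3 without Ha 3 (background 1.10%), 1 without Ha 1 (0.207%) or Hb 2 (1.10%), and 0 without any of Ha 2, Hb 3, La 1, La 2, La 3, Lb 1 or Lb 3, where 0 to 0.482% of all miRNAs were higher. With Hb 2 and Lb 2 both left out, a choice made after seeing the data, 15 members had a higher age effect in LC (background 2.20%).

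At 30 days, the breeds were compared as Ha vs. La. Of the 60 members tested, 11 were lower in La and 0 higher, where 6.34% of the 1278 miRNAs tested were lower and 5.01% higher. DESeq2 gave 10 of 52 lower and 0 higher (background 7.88% lower), and 25 members were lower and 0 higher at an unadjusted p under 0.05 (background 13.3% lower and 11.4% higher). At the thresholds of the study 7 were lower and 0 higher (background 5.71 and 3.76%). The median was -0.53, and -0.01 over all miRNAs. The greatest differences among members with at least 10 TPM were those of miR-409-y, ssc-miR-370, ssc-miR-411 and miR-127-y. The first of these was at the levels given above, with no overlap, and it was lower in La by a log2 fold change of -1.12 (SE 0.20, adjusted p = 0.0029). Levels of ssc-miR-370 in La were 13.5, 13.5 and 10.3 TPM, all below Ha, and its log2 fold change was -1.09 (SE 0.17, adjusted p = 0.0012). For ssc-miR-411 and miR-127-y the log2 fold changes were -1.03 (SE 0.17, adjusted p = 0.0014) and -0.87 (SE 0.19, adjusted p = 0.0086). The count was 32 without Ha 3, 4 without Ha 1, 3 without La 1 and 4 without La 3, where 11.9, 4.41, 3.86 and 3.94% of all miRNAs were lower, and it was 0 when all 12 libraries shared a fit.

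At 120 days, in Hb vs. Lb, 1 of 60 members was higher in Lb and 0 lower, where 1.11% of the 1444 miRNAs tested were higher and 2.15% lower. That member was miR-409-y, with no overlap between the groups, a log2 fold change of 2.26 and an SE of 0.53 (adjusted p = 0.042). DESeq2 gave 3 of 46 higher and 0 lower (background 4.25% higher). The levels of ssc-miR-370 in Lb were 14.4, 4.30 and 13.4 TPM, which overlapped with Hb, and its log2 fold change was 1.24 (SE 0.50, adjusted p = 0.16). Its unadjusted p by edgeR was 0.027, so it met the thresholds of the study. At an unadjusted p under 0.05, 17 members were higher and 0 lower (background 10.4% higher and 10.9% lower). At the thresholds of the study 16 were higher and 0 lower (background 8.45 and 8.38%). The median was 1.002, and 0.06 over all miRNAs. The count was 7 without Hb 1 (background 4.43%), 4 without Lb 2 (1.04%), and 0 without Hb 2, Hb 3 or Lb 1 (0.278 to 1.18%). These 4 comparisons and the interaction share libraries, so the high level in Ha and the low level in Hb each enter more than 1 of them.

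Within Ha, Hb and Lb, most members had their lowest level in the same library, though in Hb this held for most listed miRNAs as well. Of the 40 members with at least 1 TPM, 39 were lowest of their group in Lb 2, as were 45.5% of the 774 listed miRNAs of that level. In Ha 3, 38 of the 40 were lowest, beside 38.2% of all. In Hb 1, 35 of the 40 were highest, beside 66.3% of all. In Hb 2, 32 of the 40 were lowest, beside 74.4% of all. The La libraries were less uniform, with 14, 3 and 23 of the 40 lowest in La 1, La 2 and La 3. The members are not independent of each other, and their number does not add to the 3 libraries of a group.

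**Figure D3:**
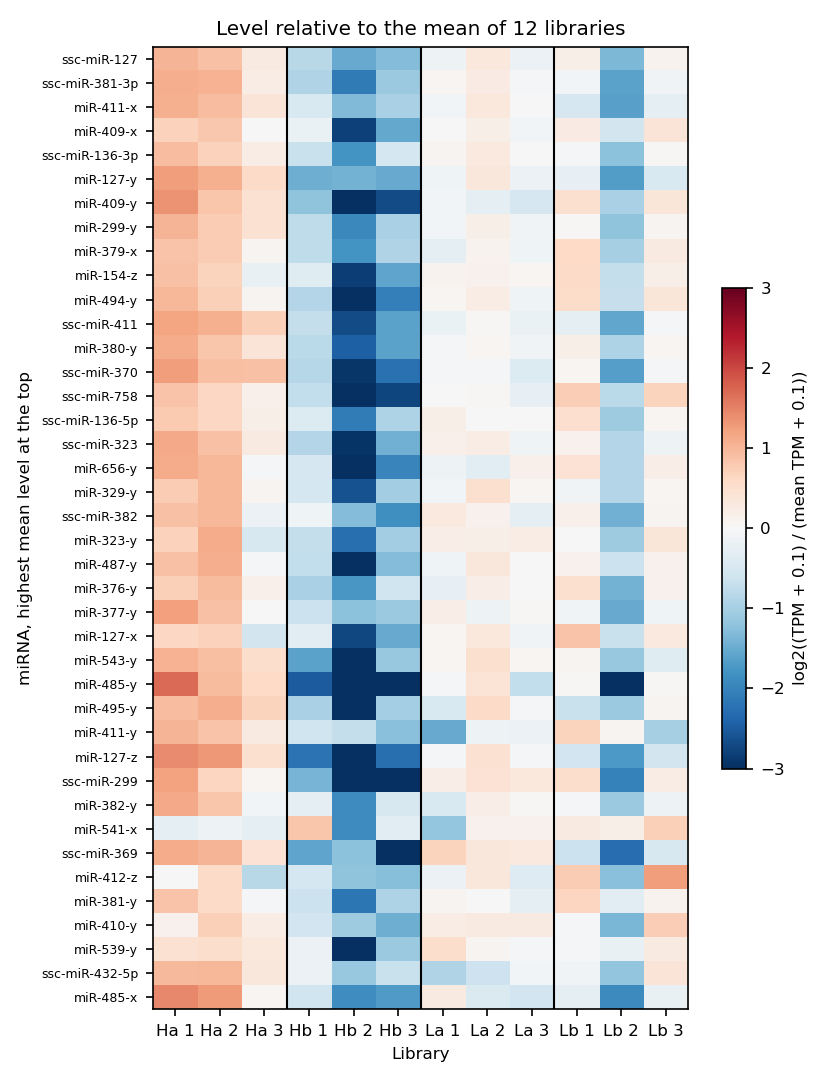
Level of the 40 members averaging at least 1 TPM (rows) in each of the 12 libraries (columns), as log2 of the level over the mean of 12 libraries, with 0.1 TPM added to both; red is above and blue below the mean, and values past 3 are drawn at 3. Most rows are red in Ha and blue in Hb, and the Lb 2 column is blue while Lb 1 and Lb 3 are near the mean.

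To see which members departed from the common shift, each member was also tested against the summed counts of the members as library size, an alternative added after seeing the data. The background of this test is high, since 61.3% of all miRNAs differed in Ha vs. Hb on this scale. There, 5 of 61 members had an adjusted p under 0.05. This p was adjusted over all 1441 miRNAs tested, most of which differed on this scale, so the adjustment was lenient for the members. Beyond the common fall, miR-485-y was lower by a log2 fold change of -3.69 (SE 0.90, edgeR's adjusted p = 0.00013), miR-127-z by -2.41 (SE 0.81, adjusted p = 0.0062), ssc-miR-299 by -1.99 (SE 0.85, adjusted p = 0.032) and miR-409-y by -1.37 (SE 0.47, adjusted p = 0.0065). Against it, miR-541-x was higher by 1.97 (SE 0.63, edgeR's adjusted p = 0.0036). Its level was 1.20, 1.32 and 1.20 TPM in Ha and 2.69, 0.33 and 1.16 TPM in Hb, so it overlapped between the ages on the TPM scale. With each library left out in turn, the greatest unadjusted p was 0.0015 for miR-485-y, 0.012 for miR-127-z, 0.035 for miR-409-y, 0.047 for miR-541-x and 0.11 for ssc-miR-299. On the same scale, 0 members had an adjusted p under 0.05 by edgeR in La vs. Lb, Ha vs. La, Hb vs. Lb or the interaction, and 2, 1, 5 and 2 had an unadjusted p under 0.05. The background of these 4 tests was 29.5, 14.0, 6.44 and 5.85% by the adjusted p and 39.8, 32.2, 18.2 and 21.8% by the unadjusted p. The spread was estimated over all miRNAs scaled this way, and the SE of ssc-miR-127 in Ha vs. Hb was 0.42, beside 0.28 with TMM. A count of 0 therefore does not show that no member departed.

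Both arms of a hairpin come from the same precursor, so their ratio compares products of a shared precursor. Of 14 hairpins with both arms listed, 7 had a mean of at least 10 counts in each arm: miR-127, miR-136, miR-299, miR-382, miR-409, miR-411 and miR-485. The log2 ratio of 5' to 3' counts was compared between ages within breeds by an exact two-sided permutation test with 400 arrangements, whose smallest p is 0.005. No ratio differed after adjustment over the 7 hairpins, and 2 did at an unadjusted p under 0.05. Those were miR-299, at -1.38 (120 less 30 days, mean of both breeds; p = 0.025, adjusted p = 0.12, exact permutation), and miR-485, at 1.70 (p = 0.035, adjusted p = 0.12, exact permutation). Both had under 3 counts of an arm in some Hb libraries. Without Lb 1, miR-299 passed (-1.53, adjusted p = 0.035, exact permutation).

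The hairpin of miR-409 has both arms among the 8 most abundant members. Its log2 ratio was 0.37 ± 0.33 in Ha and 1.995 ± 0.29 in Hb, beside 1.07 ± 0.21 for La and 0.81 ± 0.32 for Lb (SD, n = 3 each). The Hb libraries, at 1.76 to 2.32, were above all others, and the La and Lb libraries overlapped. In counts, the 5' arm miR-409-x fell from Ha to Hb by 1.73 on the log2 scale (SE 0.43, adjusted p = 0.0070) where the 3' arm fell by 3.24. The age difference of the ratio was 1.63 in HZ and -0.26 in LC. Over both breeds the test gave p = 0.10 (adjusted p = 0.23, exact permutation), and the difference between the breeds was not tested.

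Ratios between overlapping entries were, in 2 cases, added after seeing the data, with p-values adjusted over both. Other overlapping members, such as those of miR-370 and miR-758, were not compared in this way. As the levels of the chosen entries had been seen, these p-values understate the part of the choice. The longer miR-127 entries (miR-127-y and miR-127-z) made up 16.4, 16.2 and 17.1% of all counts of this arm in Ha and 9.43, 14.6 and 12.3% in Hb. In La they made up 14.4% in each library, and in Lb 10.9, 11.5 and 10.2%. Libraries of 30 days were above those of 120 days in both breeds, with no overlap. The age difference of the log2 ratio was -0.51 (exact permutation p = 0.005, the smallest the test can give, adjusted p = 0.01), and it was -0.55 in HZ and -0.47 in LC. With each library left out, it stayed between -0.59 and -0.41.

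**Figure D4:**
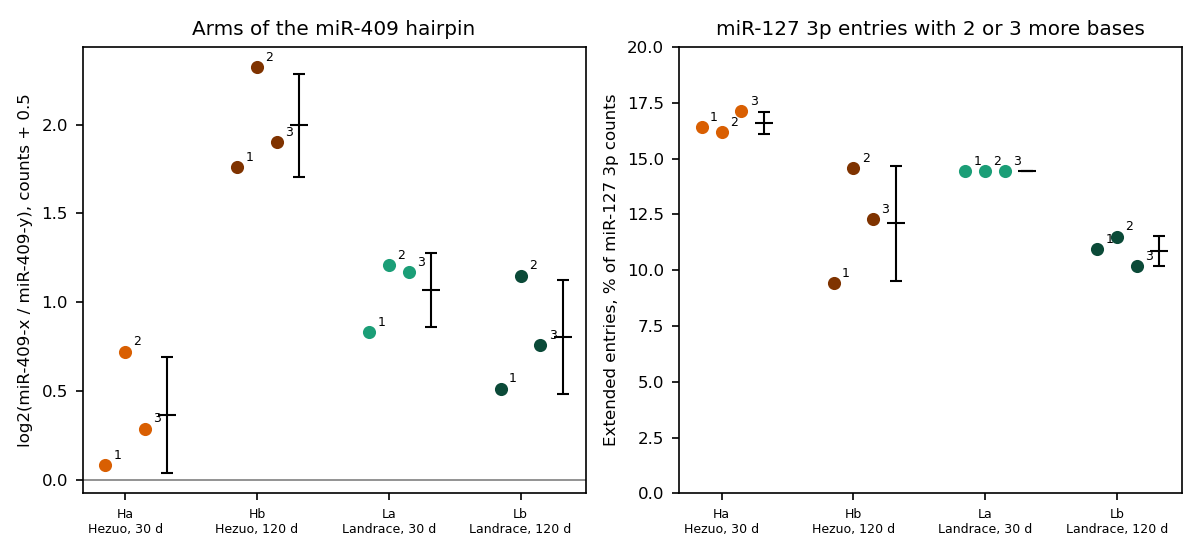
Left, log2 ratio of the 5' to the 3' arm of miR-409 (counts + 0.5); right, the longer entries miR-127-y and miR-127-z as percent of all counts of this miR-127 arm. Points are libraries numbered by replicate, and black bars are mean ± SD (n = 3): the ratio is highest in Hb (1.76 to 2.32), and the longer entries are at 14.4 to 17.1% at 30 days and 9.43 to 14.6% at 120 days.

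The second ratio was that of miR-381-y to ssc-miR-381-3p, which differ by A4G in the seed (positions counted from the 5' end) and by 1 added base at the 3' end. In the series, miR-381-y shares its seed ATGCAAG with miR-300-y. It made up 0.787, 0.665 and 0.748% of both in Ha and 1.02, 0.639 and 0.938% in Hb, which overlapped. In La it made up 0.900, 0.754 and 0.727%, below the 1.51, 2.13 and 1.03% of Lb. The age difference of the log2 ratio was 0.65 (exact permutation p = 0.01, adjusted p = 0.01), on 2 to 32 counts of miR-381-y per library.

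Other miRNAs known for the region in mammals were sought with a further list of 14 numbers, of which 5 were listed, in 7 entries. In Ha vs. Hb 1 of the 7 fell, miR-1197-y, which is named to complete the count, where 13.0% of all miRNAs fell. It was at 3.65 ± 1.21 TPM in Ha and 0.961 ± 0.773 TPM in Hb (SD, n = 3), a fall of 1.92 (SE 0.58, adjusted p = 0.020). The other 6 in this comparison, and all 7 in the remaining tests, had an adjusted p by edgeR of 0.081 or more.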

How the data were processed

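Small RNA of testis was sequenced in 12 libraries. The authors filtered reads with fastp, removed tags of other RNA classes, matched the rest to miRBase and predicted further miRNAs with mirdeep2. The deposited counts are raw whole numbers per miRNA and library, and the TPM that the authors deposited divides them by the tags of the library and writes a count of 0 as 0.01, set to 0 here. For predicted miRNAs the authors deposited a mirdeep2 score, a GC percent and hairpins, of which positions and sequences alone were used. The number of unused columns of per-sample values was 0.

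Counts were tested with edgeR 4.0.16 (R 4.3.3; glmQLFit, glmQLFTest, TMM) in a separate fit per comparison, over miRNAs whose counts summed to at least 1 over its 6 libraries, and p-values were adjusted over all of these. "Fell" and "rose" mean an adjusted p under 0.05. The script was tested on simulated data. Alternatives were RLE, library size alone, TMM without the members or from exist miRNAs, DESeq2 1.42.0, filterByExpr, a single fit, merged sequences, a replicate block and each library left out. Arm ratios used counts + 0.5. Named with values were the 8 members with the highest mean, up to 4 greatest rises and 4 greatest falls per test among those called with at least 10 TPM in a group, miR-409-y and miR-127-z, and the hairpins tested. The study names these 2 and ssc-miR-370, which the rule took by its change. DESeq2 shares are of miRNAs with an adjusted p. The members and lists were chosen with earlier results of these data known. Gene positions came from RefSeq (Sscrofa11.1), by name. Replicates differed beyond sampling noise, with a chi-square per degree of freedom of at least 49.5. Intervals and floors cover counting error only.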

Additional observations from a re-analysis of the deposited data

Results flagged for a closer look

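The members miR-409-y and miR-380-y were the 2 called for a difference between the breeds in the change with age, tested as the interaction in edgeR. They were not set apart from the other members. Against the summed counts of the members, edgeR gave 2.02 (adjusted p = 0.057) for miR-409-y and 0.57 (adjusted p = 0.70) for miR-380-y. The estimates of ssc-miR-370 (2.34) and ssc-miR-758 (2.63), not called, were above that of miR-380-y. For miR-409-y the difference of the log2 fold changes (LC less HZ) was 3.37, and over the 22 alternatives it ran from 3.06 to 4.18, with an adjusted p of at most 0.14 and the call lost in 8. For miR-380-y it was 1.91, with a range of 1.73 to 2.21, an adjusted p of at most 0.14 and the call lost in 11. The age effect was below 0 in HZ for both. In LC its estimate was 0.19 for miR-409-y and -0.30 for miR-380-y, and neither passed the test.

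A signal also appeared among the predicted miRNAs, which the comparisons above do not use. Of 332 predicted hairpins, 1 lay in or within 100 kb of the region, at chr7:121711339-121711400 on the plus strand, inside MIR136. The mature sequence is aGGACTCCatttgttttgatga, with bases 2 to 8 in capitals, and it starts 3 bases before ssc-miR-136-5p (aCTCCATTtgttttgatgatgga), which shifts the seed. It had 46 counts over the 12 libraries and was above 3 counts in 4 of them, with 11, 11 and 3 counts in Ha and 4, 0 and 1 in Hb. Its log2 fold change in Ha vs. Hb was -1.83 (adjusted p = 0.14).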

How the results depend on the processing

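Between the ages of HZ, the count of members called stayed between 31 and 43 with each library left out (8.26 to 14.7% of all miRNAs were lower) and between 37 and 46 under the other settings (8.81 to 22.3%), and the median log2 fold change stayed between -2.24 and -1.59. In the other tests the counts depended on the setting, and the cause was not tested except where given. The share of all miRNAs called in the direction of the members stands in brackets. Scaling by library size alone left 2 members called between the ages of LC (9.13%), 0 between the breeds at 120 days (0.346%) and 0 for the interaction (0%). For the interaction, RLE gave 6 (1.10%), TMM without the members 5 (1.31%), TMM from exist miRNAs 5 (0.895%), DESeq2 16 (6.61%), and merging identical sequences 1 (0.426%). DESeq2 gave 3 between the breeds at 120 days (4.25%). With filterByExpr, where fewer miRNAs are tested, there were 6 between the breeds at 30 days (7.61%), 0 at 120 days (1.13%) and 9 for the interaction (4.14%). A fit of all 12 libraries gave 0 between the breeds at 30 days (1.49%) and 6 at 120 days (5.61%). The thresholds of the study gave 2 between the ages of LC (5.81%), 7 between the breeds at 30 days (5.71%), 16 at 120 days (8.45%) and 33 for the interaction (11.2%). Added after seeing the data, summing overlapping members gave 2 between the ages of LC (13.2%), and leaving out Hb 2 and Lb 2 gave 3 between the breeds at 120 days (1.18%) and 15 for the interaction (2.20%). With each library left out, the counts ran from 1 to 12 between the ages of LC (at least 9.68%), 3 to 32 between the breeds at 30 days (3.86 to 11.9%), 0 to 7 at 120 days (0.278 to 4.43%) and 0 to 14 for the interaction (0 to 6.61%), and 0 to 1 hairpins passed the arm ratio test.

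The replicate numbers do not pair the libraries: correlations of same-numbered libraries ran from -0.21 to 0.18. With the replicate number as a block, 8 members were called between the ages of LC (13.3% of all miRNAs in that direction), 8 between the breeds at 120 days (4.71%) and 5 for the interaction (0.758%).

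Scaling moved the median of all miRNAs by up to 0.33 (library size alone, interaction). The median of the members less that of all miRNAs stayed between -2.17 and -2.14 for age in HZ, -0.76 and -0.75 for age in LC, -0.53 and -0.52 for breed at 30 days, and 0.86 and 0.95 for breed at 120 days. A change of scaling shifts all miRNAs of a library alike, so this difference could hardly move. Its constancy is therefore no test of the shift of the members. For named members with a call, 418 values under another setting kept the call and 63 lost it, and the direction held in all of these. Of the values of named members without a call, 70 gained one under another setting. Direction turned in 12 values, none of them called. For miR-411-x between the breeds at 120 days the log2 fold change was 0.20 with library size alone and 0.27 without Hb 2 and Lb 2, and ran from -0.39 to 0.22 with 1 library left out. Between the ages of LC, miR-409-x was at 0.079 with library size alone and 0.0063 without Hb 2 and Lb 2, and ran from -0.30 to 0.0063. There, miR-409-y ran from -0.024 to 0.43, and miR-494-y was at 0.15 with library size alone, 0.0065 with TMM from exist miRNAs and 0.12 without Hb 2 and Lb 2, and ran from -0.29 to 0.12. Most members under 1 TPM rest on a few counts per library, which limits their precision.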
